A study of Homo sapiens with 12 samples.

Results

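The comparison described here set allopregnanolone (3α-THP) against vehicle (V) in U87 cells, and it rests on 6 of the 12 arrays of the series, the 3 labelled 3α-THP and the 3 labelled V. U87 is an established human glioblastoma cell line, so that every value comes from a single line. The cells were kept in phenol red-free medium with charcoal-stripped serum for 24 h and then received 3α-THP at 10 nM, or DMSO as the vehicle, for 72 h. The other arrays hold cells treated with progesterone (P4, 10 nM) or finasteride (F, 100 nM), and the same V arrays are the control of all 3 steroids. DMSO is given as 0.1% in the sample characteristics and as 10% in the protocol of the labels, and the arrays cannot tell which was used. Each group has replicate numbers 1 to 3, which the labels call biological replicates. The labels do not say whether these were separate cultures, and p-values then measure the spread between these samples only.

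Allopregnanolone is made from progesterone by 5α-reductase, which gives dihydroprogesterone, and then by 3α-hydroxysteroid dehydrogenase. It is best known as a positive modulator of the GABA-A receptor, a chloride channel built from several subunits, and it can also act through membrane progestin receptors and the pregnane X receptor. Finasteride is an inhibitor of 5α-reductase. The question of the comparison is which transcripts differ in glioblastoma cells after exposure to this progesterone metabolite.

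The table gives a log2 value for each transcript cluster, the summary of a set of probes along a gene. Of 33297 clusters, 21214 carry at least 1 gene name and were tested, and 19460 of these carry exactly 1 gene. All 12 arrays were fitted together in limma with 1 mean per treatment, and a cluster was said to rise or fall where its fold was over 1.5 with an unadjusted p under 0.05, the threshold of the study's methods. All differences below are log2 fold changes, 3α-THP minus V, unless another quantity is named, and errors are limma's standard errors (SE) with n = 3 arrays per group. On the 12 arrays the median over tested clusters ran from 6.35 to 6.40. Among markers of glial and glioma cells, the V means were 12.5 for VIM, 11.8 for CD44, 11.7 for CHI3L1 and 8.99 for EGFR, and 6.15 for GFAP, 5.66 for OLIG2, 4.12 for SOX2, 3.78 for S100B and 3.00 for AQP4. Probe sets differ in brightness, so that these levels do not rank the genes, and the files give no call of whether a transcript was detected. None of the 12 markers of this list and none of the 31 measured markers of neurons, oligodendrocytes, microglia, lymphocytes, endothelium and epithelium passed the threshold, and 3 of these 31 had an unadjusted p under 0.05 in limma. In such bulk RNA, fewer cells of one kind and less RNA per cell cannot be told apart.

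Allopregnanolone was followed by many rises and few falls. In all, 144 clusters passed the threshold, which is 0.679% of those tested, and 133 of them rose (0.627%) while 11 fell (0.0519%). The largest rises were in CENPF, a kinetochore protein, KIF20B, a kinesin of cytokinesis, CCDC88A, the actin-binding protein girdin, ASPM, a spindle pole protein, and ESF1, which works in the nucleolus on ribosomal RNA, with folds of 2.73, 2.60, 2.57, 2.52 and 2.39. In CENPF, KIF20B and ASPM the V and the 3α-THP arrays overlapped. A fold over 2 was reached by 24 clusters, and the median rise was 0.72. Across all tested clusters the median difference was -0.03, and 41.1% were positive. The 133 clusters stand for 122 distinct genes beside 8 clusters shared by several genes, and 119 of the 125 clusters with a single gene are protein-coding.

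These counts hold at the unadjusted threshold. A single cluster passed a Benjamini-Hochberg adjusted p of 0.05 over all tested clusters (limma, 0.00471%), one shared by the zinc finger genes ZNF730, ZNF728, ZNF676, ZNF430, ZNF208, ZNF99, ZNF85 and ZNF43. It read 10.20, 10.27 and 10.22 on the V arrays and 10.88, 10.84 and 10.89 on the 3α-THP arrays. All 3 treated arrays thus lay above all 3 vehicle arrays with little spread, at a difference of 0.64 (SE 0.073, limma, adjusted p = 0.0198). Because the probes are shared, the gene behind it cannot be told apart. An unadjusted p under 0.05 was reached by 1557 clusters (7.34%), 690 of them positive and 867 negative. With the replicate number as a block, 2842 clusters did so (13.4%), and 157 passed the fold and p threshold (0.74%). The other cluster that then passed the adjusted p, shared by the small nucleolar RNA gene SNORA1 and its host TAF1D, differed by 0.81 (limma with replicate block, adjusted p = 0.00776), so that 2 clusters did (0.00943%). With the 6 arrays of this comparison alone and the same block, 111 clusters passed the adjusted p, 110 of them higher and 1, FAM99A, lower with 3α-THP.

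CCDC88A had the largest rise among single genes whose treated arrays all lay above the vehicle arrays. Girdin links actin to receptor signalling and takes part in cell migration. Its log2 values were 6.80, 7.36 and 6.83 on the V arrays and 7.96, 8.43 and 8.69 on the 3α-THP arrays. The lowest treated array was higher than the highest vehicle array by more than the SD of either group (0.318 for V and 0.371 for 3α-THP). The difference was 1.36 (SE 0.302, limma, adjusted p = 0.376).

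ESF1 read 5.22, 5.89 and 5.24 on the V arrays and 6.37, 6.92 and 6.82 on the 3α-THP arrays. Replicate number 2 was the highest in both groups, and the groups did not overlap. The rise was 1.26 (SE 0.249, limma, adjusted p = 0.376). EIF5B, which joins the ribosomal subunits at the start of translation, read 6.74, 7.89 and 6.99 with V and 8.04, 8.77 and 8.52 with 3α-THP. Its treated arrays were again all higher, by 1.23 (SE 0.305), although V replicate 2 came close to 3α-THP replicate 1.

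ATRX, a chromatin remodeler that is often mutated in gliomas, is measured by 2 clusters, and both rose. One read 6.72, 7.08 and 6.32 with V and 7.94, 7.50 and 8.34 with 3α-THP, and the other 7.53, 7.78 and 7.27 against 8.48, 8.39 and 8.85. Their differences were 1.22 (SE 0.349) and 1.05 (SE 0.286), in both cases with the smallest step at replicate number 2.

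EEA1, which tethers early endosomes before they fuse, rose by 1.17 (SE 0.322), from 6.55, 7.07 and 6.39 to 7.50, 7.82 and 8.19. SAMD9, an antiviral and growth-restraining protein, rose by 1.16 (SE 0.300), from 7.45, 8.27 and 7.35 to 8.82, 8.72 and 9.01. MNS1, a coiled-coil protein of flagella and cilia, rose by 1.15 (SE 0.268), from 5.23, 6.36 and 5.66 to 6.40, 7.25 and 7.04. The MNS1 groups were barely separate, since V replicate 2 almost reached 3α-THP replicate 1, yet the difference within each replicate number was 1.18, 0.89 and 1.38. The remaining genes of this size with separate groups were GCC2, LRRCC1, TPR, CCDC186, KTN1, RB1CC1, RIF1 and TAS2R31, which are described with their groups below. KTN1 encodes kinectin, a membrane anchor of kinesin, and rose by 1.09 (SE 0.259). RB1CC1, a scaffold of the complex that starts autophagy, rose by 1.09 (SE 0.237), and it was the only one of 29 measured genes of autophagy initiation and receptors that passed.

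With the block, the single genes with the smallest p were CLEC2D, MNS1, ESF1 and ZNF721. CLEC2D, the ligand of an inhibitory receptor of natural killer cells, read 6.81, 6.70 and 6.77 with V and 7.28, 7.37 and 7.61 with 3α-THP. Its V arrays were close together and the treated ones all higher, by 0.66 (SE 0.133, block SE 0.091). ZNF721, a zinc finger gene, rose by 0.63 (SE 0.144, block SE 0.100), from 7.41, 7.29 and 7.33 to 7.91, 7.86 and 8.15.

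**Figure D1:**
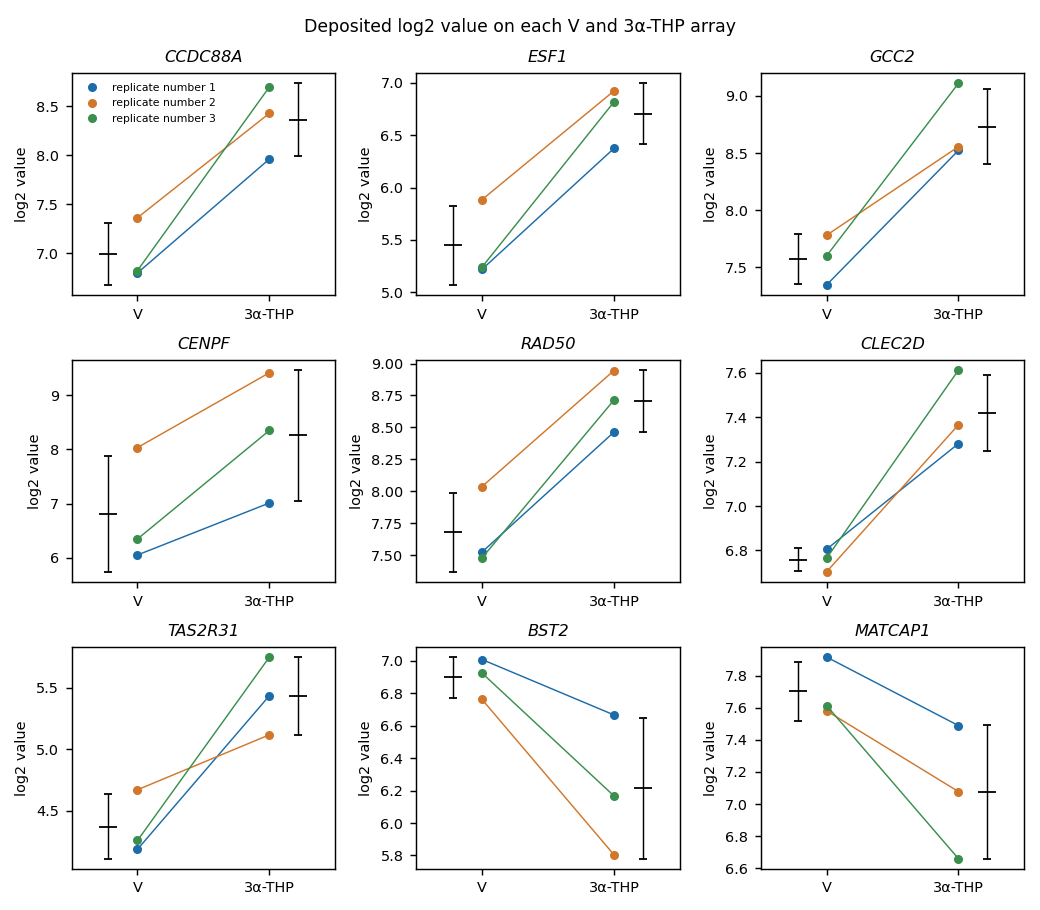
Log2 value of 9 named genes on the 3 V and 3 3α-THP arrays, with a line joining arrays of the same replicate number and, beside each group, the mean and SD (n = 3). The lines rise in 7 genes and fall in BST2 and MATCAP1, and in CENPF the groups overlap while all 3 lines rise.

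Within replicate numbers the rises were of unequal size. Of the 133 risen clusters, 131 had a positive difference in all 3 pairs, and 111 had separate groups of arrays. Across all tested clusters 12.4% were positive in all 3 pairs and 4.02% had all treated arrays above V. The 133 were selected for fold and p on these same arrays, so that these counts only describe them. The median difference of the risen clusters was 0.69 in pair 1, 0.53 in pair 2 and 1.08 in pair 3. Pair 3 was the largest in 116 of them and pair 2 the smallest in 93. V replicate 2 was the highest V array in 111 of them, and their median level was 6.72, 7.13 and 6.67 on the V arrays against 7.46, 7.77 and 7.87 with 3α-THP. Without both arrays of replicate number 3 the count past the threshold was 71, of which 56 were among the 144, and it was 240 without 3α-THP replicate 1 and 219 without both arrays of number 2.

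Set against the same V arrays, the risen clusters had a median of 0.62 with F at 100 nM and of 0.25 with P4 at 10 nM. Of the 133, 74 also rose with F and 1, LCE2C, with P4, where 0.396% and 0.0236% of all tested clusters passed in either direction. Because the 3 comparisons share their controls and the dose of F differs, these values stand side by side only. CCDC88A had 1.07 with F and 0.42 with P4, and ESF1 had 0.84 and 0.31. CENPF had 0.84 and 0.12, and KIF20B had 0.86 and 0.03.

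**Figure D2:**
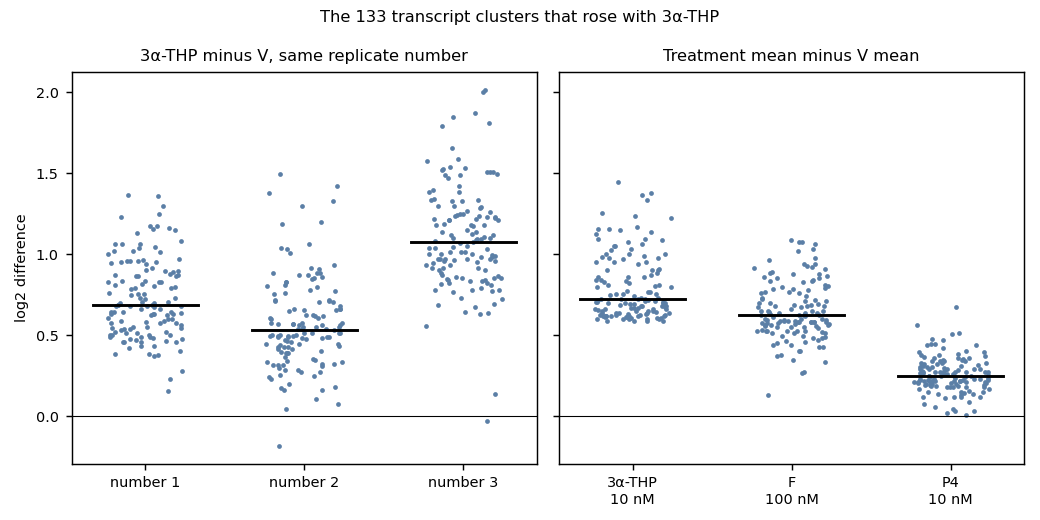
The 133 transcript clusters that rose with 3α-THP: on the left their log2 difference between 3α-THP and V within each replicate number, on the right the difference of each treatment mean from the V mean, with the median as a black line. The medians are 0.69, 0.53 and 1.08 on the left and 0.72, 0.62 and 0.25 on the right, and the clusters were selected for their values in the 3α-THP column.

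The 10 genes that the study chose for RT-qPCR were all past the threshold, but they were chosen on these same arrays, so that their count is not independent evidence. In the paper's RT-qPCR, 3α-THP alone raised REV3L, RIF1 and DYNC2H1, among others. RAD50, TPR, PCM1 and CCDC91 did not change with it there. On the arrays the median difference of the 10 genes was 0.85, with 0.90, 0.64 and 1.16 in the 3 pairs.

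RAD50, a subunit of the complex that senses DNA double-strand breaks, read 7.52, 8.04 and 7.48 with V and 8.46, 8.94 and 8.71 with 3α-THP. The increase was 1.03 (SE 0.206) and was 0.94, 0.91 and 1.24 within the replicate numbers. RIF1, which directs the choice of the repair pathway and the timing of replication, rose by 1.08 (SE 0.236). REV3L, the catalytic subunit of a translesion DNA polymerase, rose by 0.80 (SE 0.176). TPR, a filament protein of the nuclear pore basket, rose by 1.13 (SE 0.252).

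DYNC2H1 is the heavy chain of the motor that returns cargo along cilia. One of its 2 clusters read 5.99, 6.14 and 5.89 with V and 6.71, 6.63 and 6.80 with 3α-THP, a rise of 0.71 (SE 0.158). The other had 0.53 (SE 0.227) and stayed under the fold threshold. PCM1, the scaffold of pericentriolar satellites, rose by 0.60 (SE 0.151). CCDC91, a partner of Golgi adaptor proteins, rose by 0.61 (SE 0.239), from 9.55, 9.73 and 9.89 to 9.98, 10.44 and 10.58. PCM1 and CCDC91 lie just above the fold threshold, which is 0.58 on the log2 scale.

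A list of golgins, other tethers and lipid transfer proteins had the highest share of called genes after the RT-qPCR genes. Golgins are long coiled-coil proteins that catch vesicles at the Golgi surface. Of 20 measured members 9 rose and 0 fell (45.0%, where 0.668% of all 18417 genes with a cluster of their own passed), and the list median was 0.16. The members of this and the other lists were written with earlier results of these data known. Their shares therefore describe the lists and are not independent evidence. All 8 negative members were among those that did not pass. GCC2, a golgin that receives vesicles from endosomes, read 7.35, 7.78 and 7.60 with V and 8.52, 8.56 and 9.11 with 3α-THP. All treated arrays were higher, by 1.15 (SE 0.295). TRIP11, also called GMAP-210, rose by 1.03 (SE 0.314), GOLGA4 by 1.00 (SE 0.296), GOLGB1, known as giantin, by 0.95 (SE 0.295) and TMF1 by 0.62 (SE 0.197). CCDC186, which sorts cargo of dense-core vesicles, rose by 1.09 (SE 0.248), and the lipid transfer proteins VPS13A and VPS13C rose by 0.77 (SE 0.206) and 0.68 (SE 0.188).

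Genes of the centrosome and its satellites rose in 10 of 35 cases (28.6%, beside 0.668% of all genes), with a list median of 0.32. Of the 35, 31 were positive, where 41.1% of all clusters were. LRRCC1, a centriolar coiled-coil protein, read 5.38, 5.80 and 4.91 with V and 6.07, 6.99 and 6.45 with 3α-THP, a rise of 1.14 (SE 0.259). AKAP9, which holds the centrosome to the Golgi and anchors protein kinase A, rose by 0.84 (SE 0.310). CEP290, a protein of the transition zone of cilia, rose by 0.83 (SE 0.346), and CEP152, needed for centriole duplication, by 0.73 (SE 0.225). CEP112, CEP135, CEP162, CCDC18 and PCM1 were also among the 10, of which not all are named here. Of 30 measured genes of intraflagellar transport and dynein-2 1 passed, DYNC2H1, and the list median was 0.05.

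Kinetochore proteins and mitotic motors were positive in 36 of 36 measured members, with a median of 0.33. Of the 36, 5 rose (13.9%, beside 0.668% of all genes). Over all clusters 41.1% were positive, and 12.4% were so in all 3 pairs. In all 3 pairs 20 of the 36 were positive, and the list median was 0.09, 0.52 and 0.46 in pairs 1, 2 and 3. CENPF read 6.05, 8.04 and 6.35 with V and 7.01, 9.42 and 8.35 with 3α-THP. The groups overlapped widely, because the V and the treated array of replicate number 2 were both high. Within the numbers, CENPF was higher by 0.96, 1.38 and 2.00, and the difference of 1.45 had an SE of 0.565 without the block and of 0.343 with it (limma, adjusted p = 0.614 and adjusted p = 0.105). KIF20B rose by 1.38 (SE 0.434), ASPM by 1.34 (SE 0.507), KIF18A, a kinesin that limits the growth of spindle microtubules, by 0.99 (SE 0.278) and CENPE, a motor that aligns chromosomes, by 1.00 (SE 0.415). In each of these genes, too, the V and the 3α-THP arrays overlapped.

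With the replicate number as a block, 8 members of this list passed. The 3 added were KIF14, a kinesin of cytokinesis, at 0.89 (block SE 0.192), KNL1, a scaffold of the kinetochore, at 0.97 (block SE 0.226), and TTK, a kinase of the spindle checkpoint, at 0.61 (block SE 0.201). The level of the whole list followed the replicate numbers: its median over genes was 5.99, 7.21 and 6.24 on the V arrays and 6.16, 7.71 and 6.87 on the 3α-THP arrays. A list of proliferation and S-phase genes ran the same way, at 6.73, 7.60 and 7.02 with V and 6.65, 7.75 and 7.08 with 3α-THP. In that list 1 of 34 members, RIF1, passed, and its median difference was 0.12. How far the share of dividing cells in each culture sets these values was not tested.

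Condensin, cohesin and the SMC5/6 complex fold and hold chromosomes, and the list of their subunits and regulators was a further group. Of 26 measured genes 7 rose and 0 fell (26.9%, beside 0.668% of all genes), with a median of 0.16 and 23 positive members. SMC4 of condensin rose by 1.05 (SE 0.311), from 6.82, 8.13 and 7.19 to 7.95, 8.94 and 8.41. Its groups overlapped, but the difference was 1.13, 0.81 and 1.22 within the numbers. SMC2, its partner, rose by 0.86 (SE 0.286), SMC3 of cohesin by 0.72 (SE 0.220), SMC6 by 0.68 (SE 0.236) and SMC5 by 0.62 (SE 0.165). NIPBL, which loads cohesin, rose by 0.84 (SE 0.230) and ESCO1, which acetylates it, by 0.67 (SE 0.176). In the whole list only 3 genes had all treated arrays above V, so that the groups overlapped in most of the 7. RAD50, which is built on the same plan as the SMC proteins, belongs to the list of double-strand break repair, where 2 of 29 passed.

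Among 41 chromatin regulators 7 rose (17.1%), with a list median of 0.09. For this list and those that follow, the share called over all genes was 0.668%. Beside ATRX these were BOD1L1, a protector of stalled replication forks, at 0.98 (SE 0.238), PHF3, a regulator of RNA polymerase II elongation, at 0.98 (SE 0.280), ARID4B at 0.67 (SE 0.116), and CHD1, CHD9 and BAZ2B. Of 36 splicing and SR-related genes 3 rose, namely PPIG at 0.88 (SE 0.194), SCAF11 at 0.61 (SE 0.128) and THOC2, a subunit of the mRNA export complex, at 0.60 (SE 0.158). Nuclear pore and transport genes passed in 2 of 29 cases, TPR and RANBP2, the latter at 0.61 (SE 0.209). Of 20 giant cytoskeletal linkers 3 rose, CCDC88A, KTN1 and DST, the last at 0.97 (SE 0.293). SLC7A11, the cystine transporter, was the only one of 25 genes of the unfolded protein and integrated stress response that passed, at 0.90 (SE 0.346).

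**Figure D3:**
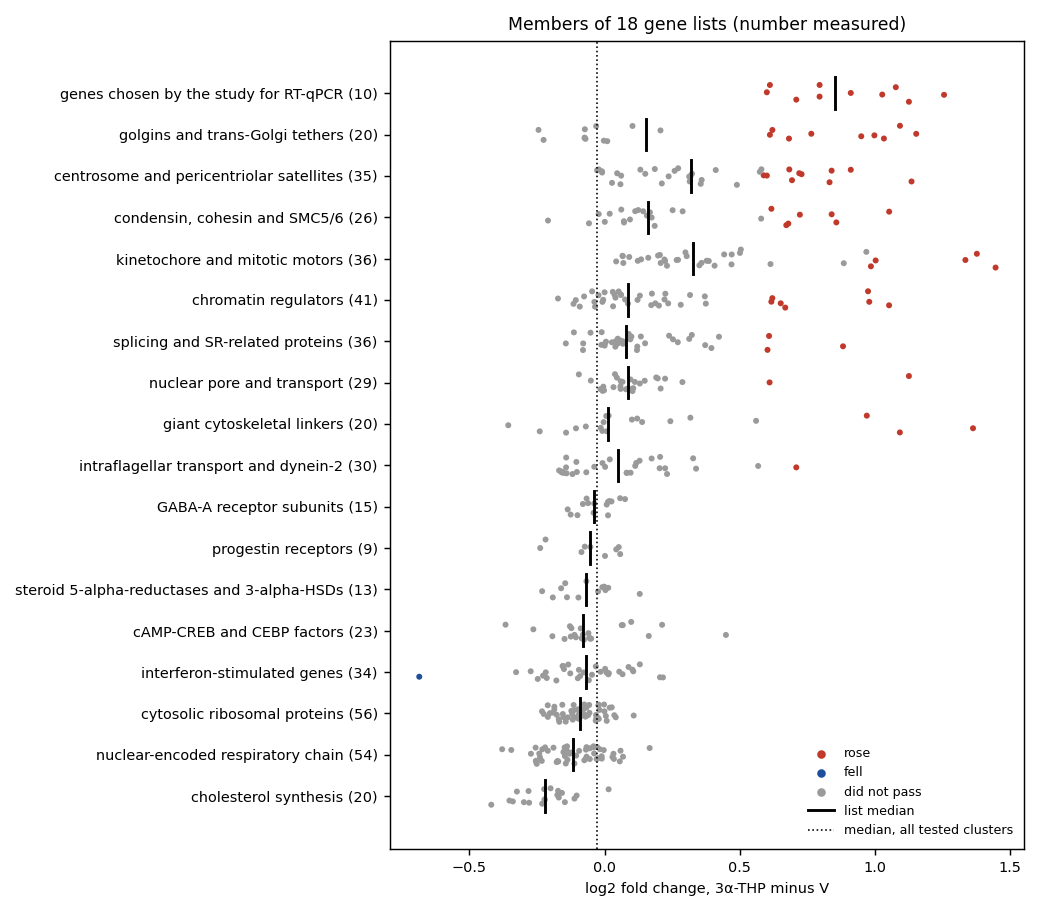
Log2 fold change of the measured members of 18 gene lists, 3α-THP minus V, with members that rose in red, those that fell in blue and the list median as a bar. The golgin, centrosome, kinetochore and condensin lists have medians of 0.16, 0.32, 0.33 and 0.16, and the GABA-A, progestin receptor and cholesterol lists have medians of -0.04, -0.05 and -0.22.

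No gene of the steroid's own machinery passed, a count near the background, since 0.668% of all genes passed. Of 9 measured progestin receptor genes, 15 GABA-A receptor subunits, 13 genes of 5α-reductase and 3α-hydroxysteroid dehydrogenase and related steps, and 9 targets of the pregnane X receptor, 0 were called by limma, with or without the block. At an unadjusted p under 0.05 these lists held 1, 0, 0 and 0 genes. The one was PGRMC2, a membrane-associated progesterone receptor component, which read 9.28, 9.26 and 9.19 with V and 9.06, 8.96 and 9.06 with 3α-THP. Its treated arrays were all lower, at -0.22 (SE 0.080, limma, adjusted p = 0.607), which is well inside the fold threshold. The nuclear progesterone receptor PGR had 0.00 (SE 0.099) at a V mean of 3.96. SRD5A1, a 5α-reductase, had a difference of 0.00 (SE 0.104) with a 95% interval of -0.22 to 0.23. Among the GABA-A subunits the differences ran from -0.14 to 0.08.

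The cAMP pathway was listed because its factors CREB and C/EBP bind promoters in response to many hormones. Of 23 measured factors and kinases 0 passed and 2 had an unadjusted p under 0.05 in limma, CEBPZ at 0.45 (SE 0.141) and CEBPD at -0.26 (SE 0.113). CREB1 itself had 0.16 (SE 0.087) and CEBPA -0.09 (SE 0.108). Among 19 genes that cAMP induces early, 0 passed, 3 had an unadjusted p under 0.05 in limma, and the median was -0.08.

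Promoters of the risen genes were searched for the sites of these factors. RefSeq promoters (GRCh38.p14, 250 bases before the start and 50 after) were matched for 102 of the 122 genes. The full cAMP response element, TGACGTCA on either strand, was found in 4 of the 102 (3.92%), in 2.65% of 14237 promoters of tested genes and in 1.98% of all 27305. The C/EBP motif TTNNGNAA, in either direction, was in 39.2%, 29.9% and 37.2%, and the short core TGACG, which every full element contains, was in 34.3%, 29.8% and 25.0%. The median GC content of the 3 sets was 59.7%, 63.0% and 58.3%, and its part in these shares was not tested. A match shows the letters, not a bound site. Of the 8 RT-qPCR genes with a matched promoter 0 held the full element before the start, while ESF1, RIF1 and RAD50 held the short one. With matrix scores over promoters and adjacent regions, the paper predicted CREB1 and C/EBP sites in genes it chose for RT-qPCR. The 2 searches use unlike measures and cannot be set against each other.

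The 4 promoters with the full element are shown for where it lies, and a link of the element to the rises was not tested. They belong to CENPE, TMF1, BDP1 and RALGAPA1. BDP1 encodes a subunit of the RNA polymerase III factor TFIIIB, and RALGAPA1 the catalytic subunit of a RAL GTPase-activating complex. Each sequence is the 250 bases before the start of the gene on the gene's strand, and capitals mark the element.
CENPE, chr4:103198344-103198593, minus strand: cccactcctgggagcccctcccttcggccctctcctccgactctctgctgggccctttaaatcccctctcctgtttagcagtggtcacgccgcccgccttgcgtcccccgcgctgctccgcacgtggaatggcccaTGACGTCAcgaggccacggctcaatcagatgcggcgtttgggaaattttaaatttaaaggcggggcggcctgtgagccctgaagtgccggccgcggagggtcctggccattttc
RALGAPA1, chr14:35809296-35809545, minus strand: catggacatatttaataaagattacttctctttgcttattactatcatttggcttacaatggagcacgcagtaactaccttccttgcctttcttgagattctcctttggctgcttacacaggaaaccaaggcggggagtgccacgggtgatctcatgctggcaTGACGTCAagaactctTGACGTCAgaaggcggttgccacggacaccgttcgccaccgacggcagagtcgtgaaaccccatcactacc
TMF1, chr3:69052334-69052583, minus strand: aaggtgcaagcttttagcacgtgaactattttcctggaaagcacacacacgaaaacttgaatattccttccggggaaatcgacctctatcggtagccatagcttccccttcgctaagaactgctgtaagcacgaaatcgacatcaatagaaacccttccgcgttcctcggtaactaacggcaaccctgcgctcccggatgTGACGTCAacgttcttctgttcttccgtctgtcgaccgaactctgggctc
BDP1, chr5:71455401-71455650, plus strand: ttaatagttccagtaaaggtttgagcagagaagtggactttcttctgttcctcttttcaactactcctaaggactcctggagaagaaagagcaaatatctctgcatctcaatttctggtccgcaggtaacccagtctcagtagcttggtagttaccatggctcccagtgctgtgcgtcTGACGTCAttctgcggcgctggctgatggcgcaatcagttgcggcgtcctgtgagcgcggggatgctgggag
The element starts 114 bases before the start of CENPE, 50 before TMF1 and 72 before BDP1, and RALGAPA1 holds it 2 times, at 87 and 71. BDP1 rose in both of its clusters, by 0.70 (SE 0.180) and 0.71 (SE 0.183). RALGAPA1 rose by 0.64 (SE 0.109) in 1 of its 3 clusters, and the other two, whose values are equal, had 0.34 (SE 0.093).

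Very few transcripts fell past the fold threshold, although at an unadjusted p under 0.05 in limma 867 clusters were negative and 690 positive. Of the 11 fallen clusters 5 have equal values and are shared by copies of SNORD3, the U3 small nucleolar RNA of ribosomal RNA processing. Its copies read 12.16, 12.31 and 12.18 with V and 12.04, 11.97 and 10.44 with 3α-THP. The fall of 0.73 (SE 0.302) came mostly from 3α-THP replicate 3, since the pairs differed by -0.11, -0.34 and -1.74.

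Of the falls, 10 of 11 had separate groups, where 7.28% of all clusters had every treated array below V. The 10 include the 5 SNORD3 clusters of equal values, and the falls were selected on these same arrays. BST2, the antiviral membrane protein tetherin, fell by 0.69 (SE 0.176, limma, adjusted p = 0.406). It read 7.01, 6.76 and 6.92 with V and 6.67, 5.80 and 6.17 with 3α-THP, without overlap. It is induced by interferon, but it was the only one of 34 measured interferon-stimulated genes to pass, and the median of that list was -0.07. MATCAP1, an enzyme that removes the terminal tyrosine of tubulin, fell by 0.63 (SE 0.183), from 7.92, 7.58 and 7.61 to 7.49, 7.08 and 6.66. RBM7, which guides the nuclear exosome to RNA, fell by 0.63 (SE 0.175), from 6.29, 6.22 and 5.75 to 5.20, 5.56 and 5.63. Its pairs ranged from -1.10 to -0.12.

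N4BP2L1 fell by 0.67 (SE 0.257) in one cluster and had 0.21 (SE 0.140) in its other one. For the long non-coding RNA FAM99A one cluster fell by 0.60 (SE 0.150) and the other had -0.06 (SE 0.223). The clusters of both genes thus disagree. FGF1, the acidic fibroblast growth factor, fell by 0.60 (SE 0.220), with overlapping groups (6.47, 6.03 and 6.22 against 6.20, 5.12 and 5.60), and was the only one of 33 growth factors and receptors to pass.

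Below the threshold, several lists, metabolic ones among them, leaned the other way from the rises. Of 20 measured genes of cholesterol synthesis and its control, a list that also holds FASN and SCD of fatty acid synthesis, 19 were negative, 13 of them in all 3 pairs, and the list median was -0.22, where the median of all clusters was -0.03 and 23.2% of clusters were negative in all 3 pairs. None of the 20 passed the threshold, and 6 had an unadjusted p under 0.05 in limma. DHCR7, the last enzyme of the pathway to cholesterol, read 9.56, 10.01 and 9.83 with V and 9.37, 9.18 and 9.59 with 3α-THP, at -0.42 (SE 0.136). FDPS, which makes farnesyl pyrophosphate, read 7.30, 7.57 and 7.34 against 7.05, 7.06 and 7.08, at -0.34 (SE 0.095). Its treated arrays were all below V and close to each other. LSS, which closes the sterol rings, had -0.28 (SE 0.119), MVK, mevalonate kinase, -0.22 (SE 0.091), and the regulators SREBF1 and SREBF2 had -0.32 (SE 0.124) and -0.23 (SE 0.085). The list median was -0.13, -0.48 and -0.08 in pairs 1, 2 and 3, the most negative in pair 2.

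Genes of the nuclear-encoded respiratory chain were negative in 47 of 54 cases, with a median of -0.12, and COX5B, a subunit of cytochrome c oxidase, had -0.38 (SE 0.094, limma, adjusted p = 0.406). Cytosolic ribosomal proteins were negative in 49 of 56 cases, with a median of -0.09. Neither list had a called gene. A lean of this kind was not particular to metabolism, since the cAMP factors and kinases were negative in 17 of 23 cases, with a median of -0.08. Over all clusters 58.9% were negative.

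**Figure D4:**
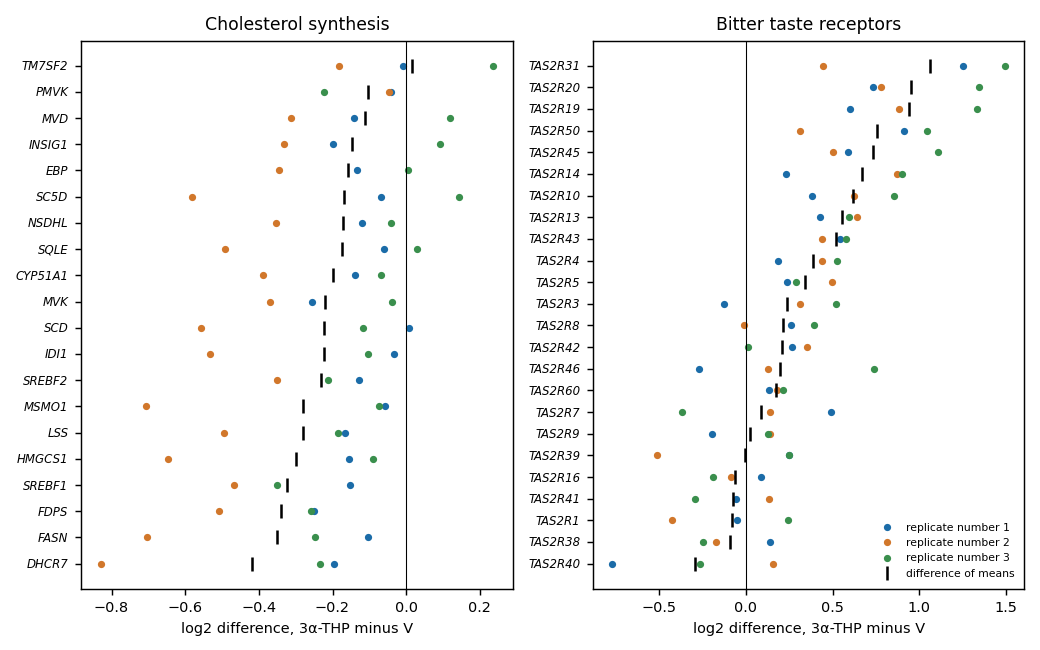
Log2 difference between 3α-THP and V for each measured gene of cholesterol synthesis (left) and each bitter taste receptor (right), as a dot per replicate number and a bar for the difference of means. Of the 20 genes on the left 19 bars lie below 0, and 7 of the 24 receptors on the right rose.

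Bitter taste receptors (TAS2R genes) were examined after their values had been seen, so that their count is a description. They are small intronless genes for G protein-coupled receptors. Of 24 measured 7 rose and 0 fell (29.2%, beside 0.668% of all genes), with a median of 0.23. TAS2R31 read 4.18, 4.67 and 4.26 with V and 5.43, 5.12 and 5.75 with 3α-THP, a rise of 1.06 (SE 0.246) with separate groups. TAS2R20 rose by 0.95 (SE 0.376), TAS2R19 by 0.94 (SE 0.250), TAS2R50 by 0.76 (SE 0.158), TAS2R45 by 0.73 (SE 0.275), TAS2R14 by 0.67 (SE 0.166) and TAS2R10 by 0.62 (SE 0.195). In the RefSeq annotation of GRCh38.p14, TAS2R14, TAS2R19, TAS2R20, TAS2R31 and TAS2R50 all lie inside the span of PRH1 and its read-through transcripts. For these 5, that longer RNA cannot be told apart from the receptors' own. Signal shared by near-identical receptors was not tested.

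MicroRNA clusters on this array measure the hairpin or the RNA around it, not the mature microRNA. Of 173 measured hairpin genes 2 rose, chosen after their values were seen, and the median was 0.01. This share of 1.16% is close to the 0.668% of all genes. MIR186 read 5.37, 5.30 and 5.12 with V and 6.13, 5.58 and 6.26 with 3α-THP, a rise of 0.73 (SE 0.247). It lies inside ZRANB2, whose own cluster had 0.27 (SE 0.112). MIR181B1 rose by 0.70 (SE 0.305), from 7.33, 7.15 and 7.38 to 8.23, 7.50 and 8.23. MIR181B2, the second gene of the same mature microRNA, had 0.43 (SE 0.145), which is under the fold threshold. The mature sequences of these hairpins in RefSeq are shown with bases 2 to 8, the seed, in capitals, because the 2 miR-181b genes share one.
hsa-miR-186-3p, chr1:71067642-71067663, minus strand: gCCCAAAGgugaauuuuuuggg
hsa-miR-181b-5p, chr1:198858925-198858947, minus strand, and chr9:124693725-124693747, plus strand: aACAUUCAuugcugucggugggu
hsa-miR-181b-3p, chr1:198858887-198858907, minus strand: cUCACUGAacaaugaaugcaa
hsa-miR-181b-2-3p, chr9:124693763-124693782, plus strand: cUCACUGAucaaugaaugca
The miR-181b-5p strand has the seed ACAUUCA and is identical for both genes, and the 3p strands share the seed UCACUGA. The miR-186-3p seed is CCCAAAG, and the 5p strand of that hairpin was not in the sequences used and is not shown.

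The risen genes were long. The genomic span runs from the start to the end of the gene with its introns. Its median was 78.3 kb for the risen clusters, 2.26 kb for the fallen ones and 23.1 kb for all tested. Each SNORD3 cluster of equal values counts among the fallen ones. By deciles of span, the share of clusters that rose was 0.519% in the shortest, where 11 rose, 0.0472% in the third and 1.84% in the ninth, where 39 rose, and 1.27% in the tenth. The median difference went from -0.06 in the second decile to 0.01 in the tenth. After removal of a smooth trend with span 147 clusters passed, of which 138 were among the 144. The part of gene length in the rises was not tested further.

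**Figure D5:**
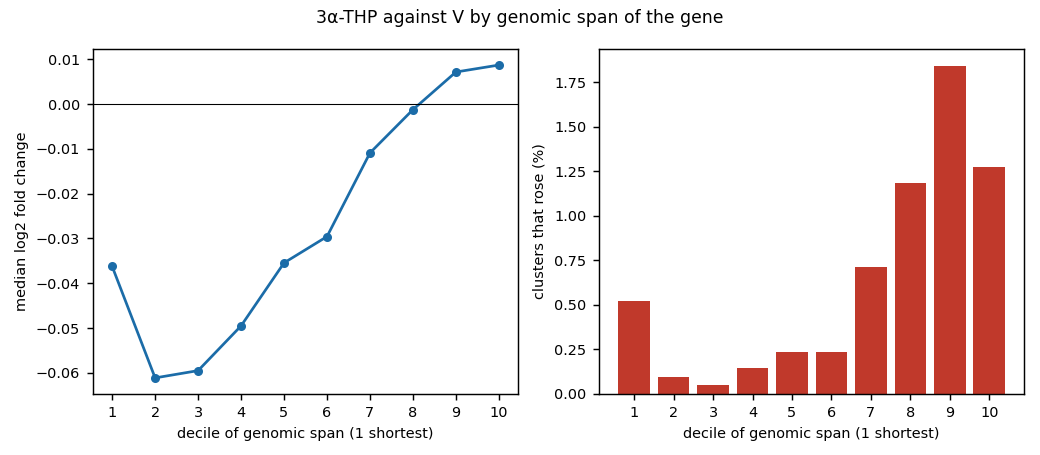
Median log2 fold change (left) and percent of clusters that rose with 3α-THP (right) in 10 equal groups of clusters ordered by the genomic span of their gene. The share is 0.519% in the first group, 0.0472% in the third and 1.84% in the ninth, and the medians stay between -0.06 and 0.01.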

How the data were processed

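Total RNA of U87 cells was hybridised to Affymetrix Human Gene 1.0 ST arrays. The authors deposited 1 log2 value for each transcript cluster and array. The submitters' processing notes name Affymetrix Expression Console 1.4, and the methods name quantile normalization and RMA for the study's own analyses. Which of these made the deposited table is not given in the sources used here. All 12 arrays were complete and were kept. Clusters without a gene name (12083) were not tested, and 703 of the tested ones duplicate the values of another cluster. Precision is limited by 3 arrays per group.

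A linear model was fitted in limma 3.58.1 (R 4.3.3) with moderated variances (prior degrees of freedom 4.73), without a block as in the methods, with Benjamini-Hochberg adjustment over 21214 clusters, and the fit was tested on simulated data. Arrays with the same replicate number deviated together from their group means (r = 0.559, 0.631 and 0.204 for the V and 3α-THP pairs, and 0.132 to 0.631 in all 18 pairs of the series). The 36 pairs with different numbers had a median r of -0.25. Deviations cancel within a group, so that this negative value follows from the positive ones and is no separate evidence. The numbers were taken to pair the arrays, and a fit with the number as a block stands beside the first where it changes a call.

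Named genes are the 16 largest rises and all falls with separate groups of arrays and 1 gene, 8 of the 10 RT-qPCR genes, the members past the threshold in each list (4 at most, or the 2 with the smallest p), the 6 smallest p with the block, receptor, reductase and cAMP genes, cell markers, and any count of 5 or fewer, named after its values were seen. Others are named where a count or a sequence called for them. A gene entered the 34 pathway and 7 marker lists with its brightest cluster. The members and lists were written from general knowledge with earlier results of these data known. Promoter and microRNA sequences and gene spans are those of RefSeq (GRCh38.p14). Alternatives changed the replicate block, the arrays, the test, the normalization, the clusters tested, array weights and the trend with span, and left out arrays in turn. The RT-qPCR, enrichment and binding site analyses of the study were not repeated. Some results of the comparison are not reported here.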

Additional observations from a re-analysis of the deposited data

How the results depend on the processing

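Under the alternatives the count of 144 clusters past the threshold stayed within 1.5 times of its value except without single arrays or replicate numbers, where it ran from 71 (without both arrays of number 3) to 240 (without 3α-THP replicate 1), with 219 without number 2. The rises ran from 63 to 202 over those settings and the falls from 6 to 38. The 11 falls were 7 with the 2 groups alone, 4 with the unmoderated analysis of variance, 6 after quantile normalization, 7 without dim clusters, 4 with 1 cluster per gene and 18 with array weights. The adjusted p was passed by 2 clusters with the replicate block, 111 with the block and the 2 groups alone, 34 with array weights and 0 with the 2 groups alone or 1 cluster per gene, and by 0 to 3 without single arrays or numbers. In the 2-group fit 1124 clusters had an unadjusted p under 0.05, and 1305 with 1 cluster per gene. The 58 called members of the gene lists were 28 (without number 3) to 71 without single arrays or numbers.

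The block called all 144 clusters and 13 more, and with it as a random term, chosen after seeing the data, 150 passed. Of the named genes, the block changed the call of KIF14, KNL1 and TTK and of no other. Without number 3, 38 of the named values lost their call. Values near 0 changed sign: SRD5A1 was -0.038 with array weights and ran from -0.075 to 0.062 without single arrays or numbers, the uncalled FAM99A cluster was 0.19 with array weights and ran from -0.42 to 0.12, PAQR6 was 0.0070 with the trend with span removed and ran from -0.15 to 0.034, and CEBPA ran from -0.19 to 0.0012. Arrays give no detection call here, so what is dim was set by the median level alone.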
